A study of Mus musculus and Ictidomys tridecemlineatus with 36 samples.

Results

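The regions described here are all peaks of 3 histone marks, H3K4me3, H3K27ac and H3K4me1, in the P5 retina of the 13-lined ground squirrel (13LGS). A region was a member when it stood in the deposited peak list of 1 of these marks. There were 253597 such peaks, which is 47.6% of the 532904 peaks deposited over all targets and both species. They comprised 18020 peaks of H3K4me3, 93999 of H3K27ac and 141578 of H3K4me1. CUT&RUN, in which an antibody guides a nuclease to cut and release the DNA around its target, was run on nuclei from frozen retinas. Each mark came from 1 library of biological replicate 2, a pool of retinas from 2 individuals with no genetic change or treatment named, and was called against 13LGS IgG, the control for unspecific cutting. The wider study compared this cone-dominant retina with the rod-dominant P2 mouse retina, whose lists rest on 2 libraries per mark, each a pool of 3 animals.

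The 3 marks sit on the tails of histone H3 and label different parts of the regulatory genome. H3K4me3 is placed at the start sites of genes with active or poised promoters. H3K4me1 spreads over enhancers and over the flanks of promoters, whether or not these are in use. H3K27ac, laid down by the acetyltransferases p300 and CBP, is found at promoters and enhancers in use. The study accordingly read H3K4me3 as a promoter mark, H3K27ac without H3K4me3 as a mark of active enhancers, and H3K4me1 as a mark of poised enhancers. The retina holds many cell types, and in bulk tissue a mark in fewer cells and a weaker mark in each cell cannot be told apart.

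With 1 library per mark there is no spread between replicates and no difference between marks could be tested, so every value is a description of these 3 libraries. The peak lists do not give read depth. Shares of peaks carry a 95% Wilson interval of at most 0.716 percentage points to either side for the overlaps and combinations given below, and this covers counting error only. All lists were called against IgG of the same species. Which of the 3 13LGS IgG libraries entered each call is not stated, so lists may share a control. Positions are those of the 13LGS assembly HiC_Itri_2. Its 19 longest sequences, Itri1 to Itri19, are called chromosomes here, and they held all but 100 H3K4me3, 269 H3K27ac and 454 H3K4me1 peaks.

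H3K4me3 formed few, wide and strongly enriched peaks. Its median width was 1123 bp and its median fold over IgG was 12.6. The middle of the list lay between 576 and 1783 bp and between 5.09-fold and 24.1-fold (25th and 75th percentiles). H3K27ac formed narrow, weakly enriched peaks, with a median of 455 bp and percentiles of 299 and 852 bp. Its fold ran from 2.74 to 3.88 between the same percentiles around a median of 3.18. H3K4me1 lay between the other marks in fold, with a median of 3.96 and percentiles of 2.97 and 6.28, and in width, with a median of 808 bp and percentiles of 413 and 1614 bp. A fold of at least 10 was reached by 56.9% of H3K4me3 peaks, 10.6% of H3K4me1 peaks and 0.754% of H3K27ac peaks.

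The upper tails were ordered differently from the medians. H3K4me3 had the lowest 99th percentile of width, at 4567 bp, against 4936 bp for H3K27ac and 7442 bp for H3K4me1. Widths of at least 10000 bp occurred in 11 H3K4me3 peaks, 107 H3K27ac peaks and 595 H3K4me1 peaks. The widest decile of the peaks held 25.9% of the H3K4me3 bases, 38.7% of the H3K27ac bases and 36.7% of the H3K4me1 bases. In P2 mouse retina the corresponding medians were 1338 bp and 13.5-fold for H3K4me3, 432 bp and 3.36-fold for H3K27ac, and 805 bp and 4.25-fold for H3K4me1. The order of the marks in both measures was the same in the 2 species. The species differ in stage, library number and assembly as well, and these cannot be told apart.

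Many folds were small in absolute terms. Among H3K27ac peaks, 20.7% had a fold within 0.0005 of a whole multiple of 0.199, and the median fold stood at 16.0 of these steps. For H3K4me1, 17.8% of peaks lay on whole multiples of 0.175. The peak caller macs2 divides the number of fragments at the summit by a background value, so that folds over a shared background come in such steps. The smallest deposited folds were 1.18 for H3K4me3, 1.46 for H3K27ac and 1.40 for H3K4me1. Past the q-value threshold, 88.9% of H3K4me3 peaks also reached a −log10 q-value of 5, compared with 71.1% of H3K4me1 peaks and 39.7% of H3K27ac peaks.

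Wider peaks had larger folds in all 3 lists. Pearson's r between log2 width and log2 fold was 0.77 over the 18020 H3K4me3 peaks, 0.68 over the 93999 H3K27ac peaks and 0.78 over the 141578 H3K4me1 peaks. The peaks of a list come from 1 library, and a wide peak gives the summit more positions to fall on, so no test was made of these values. From the narrowest to the widest decile, the median fold went from 3.13 to 32.1 for H3K4me3, from 2.71 to 11.2 for H3K4me1 and from 2.82 to 5.63 for H3K27ac. The H3K27ac median stayed between 2.82 and 2.83 over the 3 narrowest deciles, which end at 323 bp.

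Overlap with the other marks also went up with width. Of H3K27ac peaks, 45.4% in the narrowest decile and 98.9% in the widest overlapped H3K4me1. Of H3K4me1 peaks, 11.6% in the narrowest decile and 80.4% in the widest overlapped H3K27ac. For H3K4me3 the share with H3K27ac went from 23.3% to 75.6%, and the share with H3K4me1 from 60.4% to 96.0%. A wider peak has more room to meet another, and the part of width alone was not tested.

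**Figure D1:**
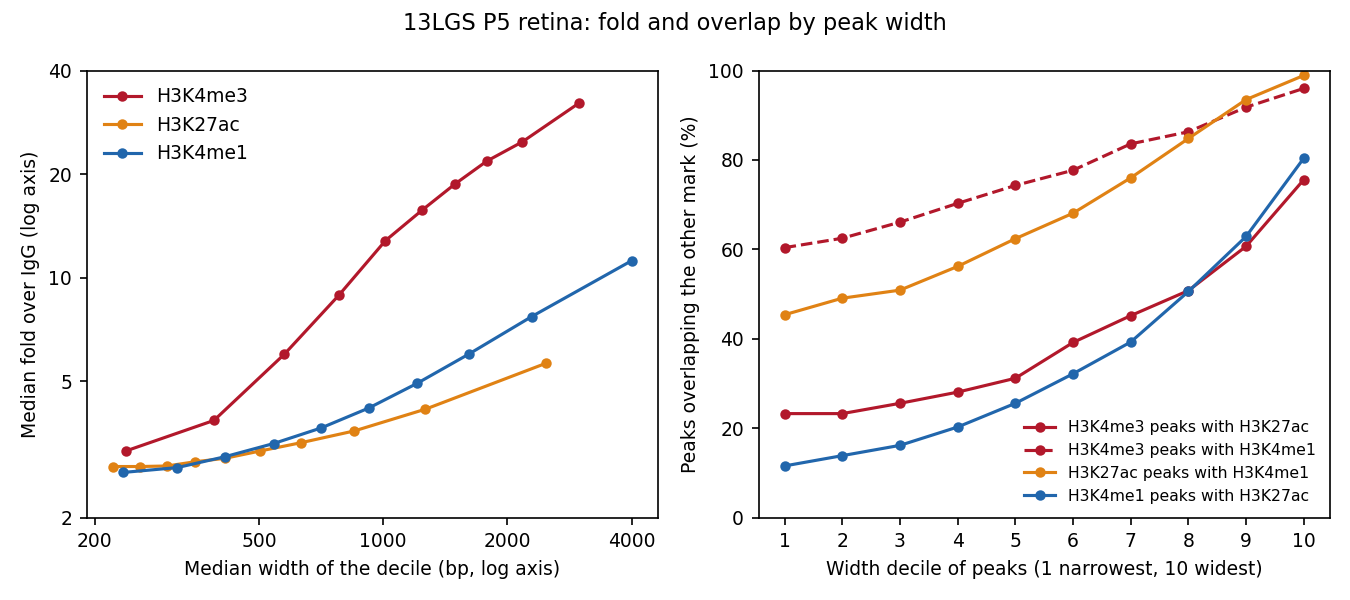
Peaks of each 13LGS mark were split into 10 deciles by width. The left panel plots the median fold over IgG of each decile against its median width (both axes logarithmic), and the H3K4me3 line climbs to 32.1 while the H3K27ac line ends at 5.63. The right panel plots the share of peaks that overlap another mark by at least 1 bp, in percent, and all 4 lines rise from the narrowest to the widest decile.

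The strongest peak of the whole map was an H3K4me3 peak of 192-fold and 9507 bp at Itri3:7506501-7516007. It covered the promoter element that the study's tables assign to MALAT1, an abundant nuclear long non-coding RNA, and overlapped both other marks and an Otx2 peak. The next 4 H3K4me3 peaks by fold ranged from 134-fold to 146-fold and were 4477 to 9777 bp wide, each with both other marks and Otx2. The widest H3K4me3 peak, 24965 bp at Itri3:32824730-32849694, had a fold of 66.7. No gene name is given for it, because the tables at hand name genes at selected elements only.

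Fold and width picked different regions. Of the 100 H3K4me3 peaks with the highest fold, 18 were also among the 100 widest. The corresponding counts were 14 for H3K27ac and 2 for H3K4me1. The H3K4me1 peak with the highest fold, 56.1, was 4384 bp wide at Itri17:25686460-25690843 and held H3K27ac but neither H3K4me3 nor Otx2. The widest H3K4me1 peak spanned 65342 bp at Itri3:36599893-36665234 with a fold of 24.6. It formed most of the widest joined region of the map, 69627 bp at Itri3:36595758-36665384, made of 2 H3K4me3, 12 H3K27ac and 3 H3K4me1 peaks.

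The strongest H3K27ac peak, 26.7-fold and 9444 bp at Itri3:71959235-71968678, lay 3.5 kb from the nearest named promoter element, that of Crebzf, which encodes a leucine zipper transcription factor. It overlapped H3K4me1 and Otx2 but not H3K4me3. The widest H3K27ac peak measured 39610 bp at Itri5:182827909-182867518 with a fold of only 6.0. An H3K4me1 peak of 39796 bp covered nearly the same stretch, and an H3K4me3 peak of 15521 bp and 68.5-fold overlapped its first part. This was the 1 locus where the 5 widest peaks of all 3 marks met. Neither the H3K4me3 nor the H3K27ac peak there overlapped Otx2.

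Among the 100 H3K27ac peaks with the highest fold, 28 overlapped H3K4me3, all 100 overlapped H3K4me1 and 88 overlapped Otx2. Of the 100 H3K4me1 peaks with the highest fold, 8 overlapped H3K4me3, 97 overlapped H3K27ac and 61 overlapped Otx2. Of the 100 highest H3K4me3 peaks, 92 overlapped H3K27ac, 93 overlapped H3K4me1 and 93 overlapped Otx2. Over the whole lists, H3K4me3 was on 9.03% of H3K27ac peaks and 11.6% of H3K4me1 peaks, so it was more frequent among the 100 highest H3K27ac peaks than in their list and less frequent among the 100 highest H3K4me1 peaks. H3K27ac was on 40.3% of all H3K4me3 peaks and 35.3% of all H3K4me1 peaks. H3K4me1 was on 76.9% of all H3K4me3 peaks and 68.5% of all H3K27ac peaks. From the narrowest to the widest decile, the share with Otx2 went from 27.9% to 93.6% for H3K4me3 and from 5.12% to 49.3% for H3K27ac. For H3K4me1 it went from 3.22% to 47.4%. The Otx2 count of the 100 highest H3K4me3 peaks was thus near the share of their widest decile.

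To count the combinations, peaks that overlapped by at least 1 bp, directly or through a chain of peaks, were joined into 168336 regions. H3K4me1 only made up 81375 regions, or 48.3%. H3K27ac with H3K4me1, the pair known from active enhancers, made up 42722 (25.4%). H3K27ac only came next with 27096 (16.1%). Regions with H3K4me3 were fewer in each combination. H3K4me3 with H3K4me1 counted 6595 (3.92%), all 3 marks 6415 (3.81%), H3K4me3 only 3468 (2.06%) and H3K4me3 with H3K27ac but no H3K4me1 665 (0.395%).

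Joined regions were wider with more marks, in part by construction, since a region of 1 mark is always 1 peak. The highest fold of a region is likewise taken over more peaks where more are joined. The median region of all 3 marks was 3461 bp, against 1899 bp for H3K4me3 with H3K4me1, 1647 bp for H3K27ac with H3K4me1, 1225 bp for H3K4me3 with H3K27ac, 632 bp for H3K4me3 only, 555 bp for H3K4me1 only and 321 bp for H3K27ac only. Up to 16 H3K27ac peaks stood in 1 region of all 3 marks. The highest H3K4me3 fold of a region had a median of 20.7 with all 3 marks, 17.8 with H3K27ac, 11.1 with H3K4me1 and 7.37 alone. Single H3K4me3 peaks had median folds of 19.9, 17.4, 10.1 and 7.37 in the same order. H3K4me1 had a median of 6.26 in regions with H3K27ac and 3.39 alone. H3K27ac moved least, from 2.90 alone to 3.54 with H3K4me1 and 3.60 with both other marks.

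The combinations were also counted in bases. The regions of all 3 marks summed to 27.8 Mb, but only 3.37 Mb, or 1.57% of the 214 Mb under any mark, lay under all 3 marks at once. H3K4me3 alone covered 10.4 Mb (4.87%), more bases than any combination that included it. H3K4me3 with H3K4me1 covered 7.12 Mb (3.33%) and H3K4me3 with H3K27ac 2.70 Mb (1.26%). From the side of H3K4me3, 44.4% of its bases were under an H3K4me1 peak and 25.7% under an H3K27ac peak. H3K27ac with H3K4me1 covered 52.9 Mb (24.7%), and the regions of that combination summed to 93.3 Mb. Of all H3K27ac bases, 75.8% were under an H3K4me1 peak, while 30.3% of H3K4me1 bases were under an H3K27ac peak. In number, 45.8% of H3K27ac peaks lay wholly inside one.

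**Figure D2:**
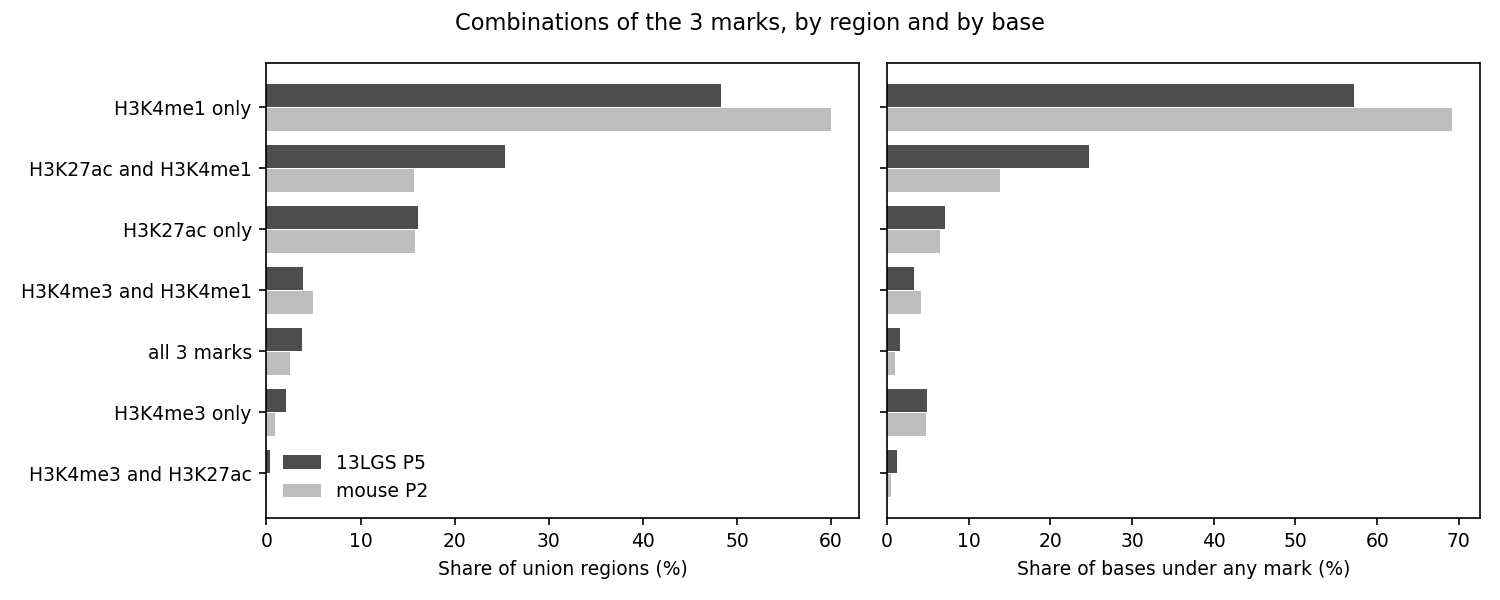
Shares of the 7 combinations of H3K4me3, H3K27ac and H3K4me1 in 13LGS (dark) and mouse (light), as percent of joined regions (left) and percent of bases under any mark (right). In 13LGS, all 3 marks hold 3.81% of regions and 1.57% of bases, whereas H3K4me3 only holds 2.06% of regions and 4.87% of bases.

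In mouse, H3K4me1 only made up 60.0% of 156952 regions and H3K27ac with H3K4me1 15.7%, while H3K27ac only stood at 15.8%. The all-3 class held 2.54% of mouse regions and 0.962% of mouse bases. H3K4me3 without the others held 0.963% of regions. No test between species was made, since each 13LGS list is 1 library.

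From the side of each mark, 76.9% of H3K4me3 peaks overlapped H3K4me1 (95% Wilson interval 76.3 to 77.5), compared with 88.1% in mouse. H3K27ac overlapped H3K4me1 in 68.5% of its peaks (68.2 to 68.8), against 58.9% in mouse, and H3K4me1 overlapped H3K27ac in 35.3% (35.0 to 35.5), against 21.5%. H3K27ac peaks with neither other mark had a median fold of 2.90 and a median −log10 q-value of 2.93, and 13.5% of them reached a −log10 q-value of 5. Among H3K27ac peaks on H3K4me1 but not H3K4me3, 49.0% did.

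Requiring a −log10 q-value of at least 5 in all lists left 108206 regions. H3K27ac only then fell to 4976 regions, or 4.60% of them, whereas H3K4me1 only rose in share to 60.3%. With the 18020 peaks of highest −log10 q-value from each list, H3K27ac with H3K4me1 made 7676 of 38462 regions, all 3 marks 1216 and H3K4me3 only 13170. No other combination lost as large a share of its regions at the stricter q-value.

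The layout around H3K4me3 was measured at 250 bp steps from the peak centre. H3K27ac was most frequent at the centre itself, where 26.7% of H3K4me3 peaks were covered, and it dropped to 10.9% at 1 kb and 4.62% at 5 kb on the right side. H3K4me1 had a shallow dip, with 38.1% of peaks covered at 250 bp on the left, 37.7% at 250 bp on the right and 39.1% at the centre, between shoulders of up to 42.6% at 750 bp. At 2 kb H3K4me1 still covered 31.3% on the left and 30.8% on the right, and at 10 kb 11.3% and 10.7%. In mouse the H3K4me1 dip was deeper, from 55.1% at 750 bp to 39.0% at the centre, and central H3K27ac coverage was 15.5%.

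Coverage of the middle by H3K4me1 differed between width classes of H3K4me3 peaks. Among H3K4me3 peaks under 500 bp, 56.0% had H3K4me1 over their middle, and 0.106% had it over both edges but not the middle. A narrow peak has little room for a gap in H3K4me1, so a free middle between covered edges is rare there by construction. Among those of 2000 to 3999 bp, only 21.9% had H3K4me1 over the middle, and 36.3% had it over both edges with the middle free. H3K27ac behaved otherwise. It covered the middle of 21.3% of the narrowest class and 35.4% of the 2000 to 3999 bp class, and both edges with a free middle in at most 1.94% of any width class. The 310 H3K4me3 peaks of 4000 bp or more carried H3K4me1 on both edges in 58.7% of cases and H3K27ac over the middle in 48.4%. In this widest class H3K4me1 covered the middle more often again, in 45.5%. It covered both edges with the middle free in 30.6%.

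**Figure D3:**
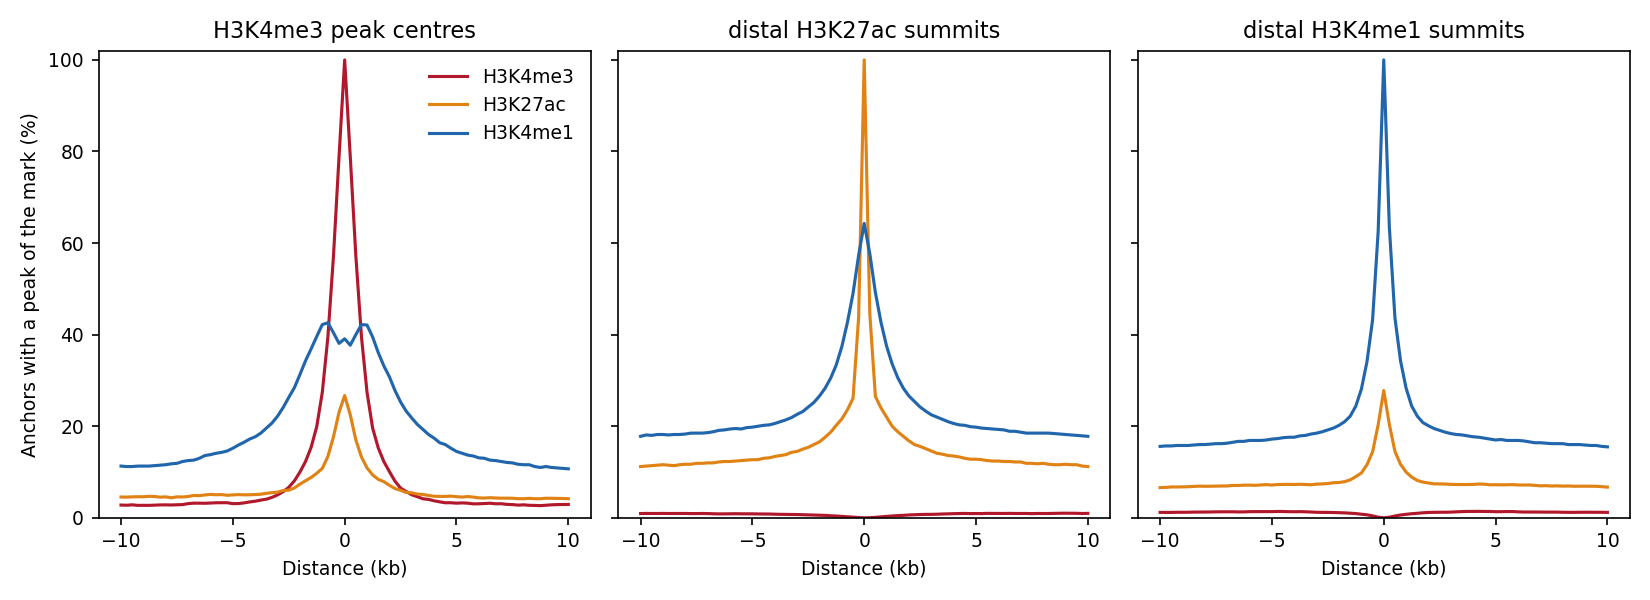
Percent of 13LGS anchors covered by a peak of each mark at distances of up to 10 kb (x axis, kb) from H3K4me3 peak centres, from summits of H3K27ac peaks without H3K4me3 and from summits of H3K4me1 peaks without H3K4me3. H3K4me1 covers 39.1% of H3K4me3 centres, slightly more than at 250 bp to either side and less than at the shoulders, but peaks at 64.3% on distal H3K27ac summits.

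Away from H3K4me3 the layout was different. At the summits of distal H3K27ac peaks, those without H3K4me3, 64.3% were covered by H3K4me1, and this fell to 49.0% at 500 bp and 26.6% at 2 kb to the left. At the summits of distal H3K4me1 peaks, 27.8% were covered by H3K27ac. The median gap between neighbouring H3K27ac peaks was 4.42 kb, with 27.9% of gaps under 1 kb, and the H3K4me1 values were 4.53 kb and 24.5%. H3K4me3 peaks were 35.9 kb apart at the median, yet 16.4% of gaps were under 1 kb, compared with 5.79% in mouse.

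Distal peaks mostly lay far from the nearest H3K4me3 peak. The edge-to-edge distance had a median of 82.7 kb for the 85510 distal H3K27ac peaks, with 25th and 75th percentiles of 30.6 and 218 kb. For the 125185 distal H3K4me1 peaks the median was 73.9 kb and the percentiles 23.0 and 197 kb. Few were adjacent, with 9.34% of distal H3K27ac and 14.3% of distal H3K4me1 peaks within 10 kb. More than 500 kb separated 10.2% and 7.65% from any H3K4me3 peak, and the farthest stood at 4.86 Mb and 5.05 Mb. Another 123 H3K27ac and 235 H3K4me1 peaks lay on sequences without H3K4me3 and have no distance. Mouse medians were 74.5 kb for H3K27ac and 66.1 kb for H3K4me1.

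H3K27ac peaks with H3K4me1 were closer to H3K4me3, at a median of 72.7 kb, than those without it, at 109 kb. For H3K4me1 peaks the split by H3K27ac was small and in the other direction, with 76.7 kb for those with H3K27ac and 72.2 kb for those without. The share of distal H3K27ac peaks on H3K4me1 went from 92.4% under 1 kb to 71.0% between 20 and 50 kb and 52.7% at 500 kb and beyond. The share of distal H3K4me1 peaks with H3K27ac was lowest next to H3K4me3, at 11.2% under 1 kb, reached 39.8% between 20 and 50 kb, and stayed between 33.6% and 38.8% farther out. Distal H3K4me1 peaks just outside H3K4me3 were thus mostly without acetylation, whereas the acetylated distal peaks there nearly always had H3K4me1. By definition these counts leave out peaks that reach H3K4me3, and a wide peak nearby reaches it more easily. Of the 16393 H3K4me1 peaks that overlapped H3K4me3, 6160 also overlapped H3K27ac.

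H3K27ac peaks that overlapped H3K4me3 had a median width of 626 bp. Distal H3K27ac peaks were narrower, and among them the widest lay a little way from H3K4me3. Their median was 450 bp under 1 kb, 539 bp between 2 and 5 kb and 372 bp at 500 kb and beyond. The median fold was 3.03 under 1 kb, 3.16 between 1 and 2 kb, 3.20 between 2 and 5 kb and 3.18 or 3.19 in every bin from 5 kb outward, all within about 1 step of the spacing given above. H3K4me1 peaks that overlapped H3K4me3 had a median width of 1264 bp, but distal H3K4me1 peaks were narrow near H3K4me3. The distal median width was 492 bp under 1 kb, 641 bp between 2 and 5 kb and 812 bp between 50 and 100 kb. The distal median fold of H3K4me1 went from 3.17 under 1 kb to 4.37 at 500 kb and beyond. Distance bins share chromosomes and library, and these differences were not tested.

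**Figure D4:**
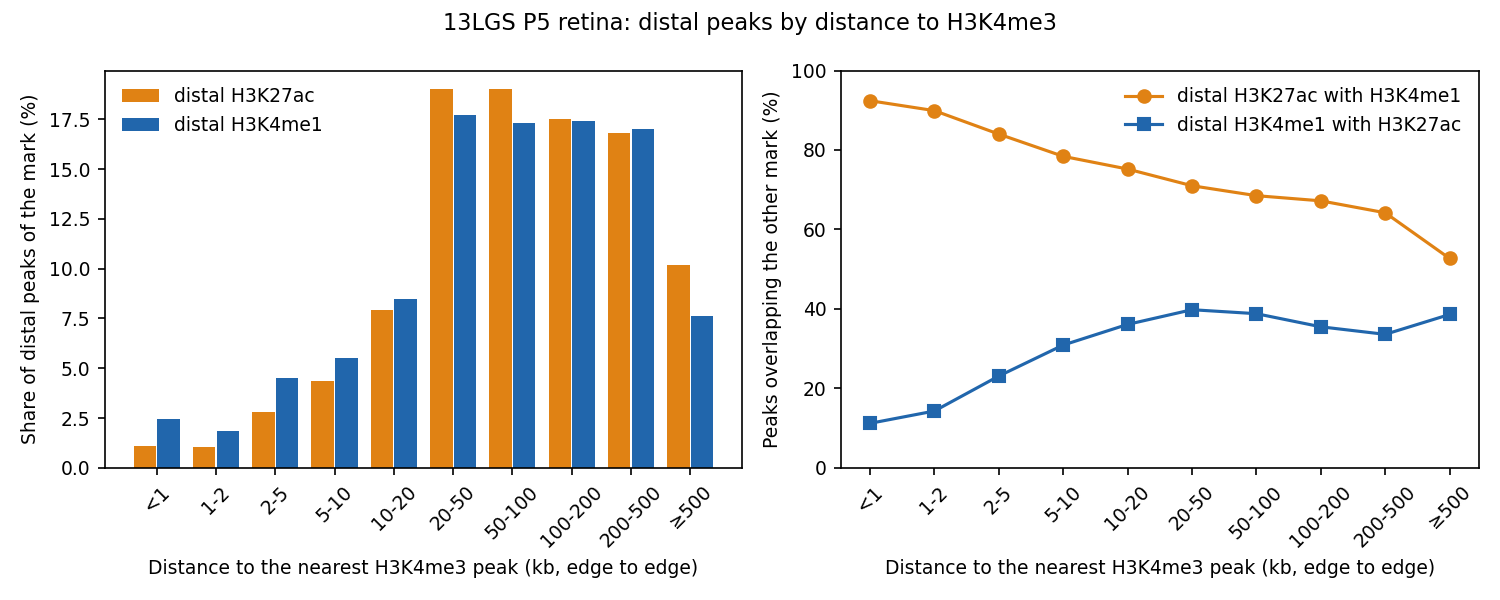
Distal 13LGS peaks of H3K27ac and H3K4me1 in bins of distance to the nearest H3K4me3 peak (kb). The left panel gives the percent of distal peaks of the mark in each bin and the right panel the percent that overlap the other mark, which goes from 92.4% to 52.7% for H3K27ac and from 11.2% to 38.6% for H3K4me1.

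A pair of other lists of the same tissue, which may share IgG libraries with the histone lists, gave a further readout of the combinations. Otx2 and Neurod1 are transcription factors that drive photoreceptor development, and their 13LGS lists rest on 6 and 4 libraries. These are technical replicates of biological replicates 1 and 2 only, and those of Otx2 were made with more than 1 antibody. Otx2 lay on 85.4% of regions with all 3 marks, 78.8% of those with H3K4me3 and H3K27ac, 55.9% with H3K4me3 and H3K4me1 and 44.4% with H3K4me3 only. Regions of H3K27ac with H3K4me1 held Otx2 in 18% of cases, H3K4me1 only in 4.10% and H3K27ac only in 0.679%. Neurod1 was on 9.77%, 7.52%, 2.41% and 1.59% of the H3K4me3 combinations in the same order, and on 5.25%, 0.624% and 0.214% of the others.

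These shares follow region size in part, since wider regions have more room for a peak. Counted as peaks per Mb of region, Otx2 stood at 639 for H3K4me3 with H3K27ac, 590 for H3K4me3 only, 282 for H3K4me3 with H3K4me1 and 262 for all 3 marks. The values were 96.5 for H3K27ac with H3K4me1, 53.6 for H3K4me1 only and 17.5 for H3K27ac only. By this measure every class with H3K4me3 was above every class without it, and H3K27ac only was lowest. A factor peak counts when it overlaps a region by at least 1 bp, which raises the values of short regions. The order among the H3K4me3 classes therefore depends on width as well. Neurod1 gave another order. Its densest class was H3K4me3 with H3K27ac at 57.7, but H3K27ac with H3K4me1 at 25.6 was level with all 3 marks at 25.8, and above H3K4me3 with H3K4me1 at 11.1.

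Among distal H3K27ac peaks, the share with Otx2 went from 17.6% under 1 kb of H3K4me3 to 5.19% at 500 kb and beyond, and the share with Neurod1 from 4.77% to 0.572%. Distal H3K4me1 peaks had the highest Otx2 share, 10.3%, between 20 and 50 kb. By width, 5.12% of the narrowest and 49.3% of the widest decile of H3K27ac peaks overlapped Otx2. Whether the factor lists' own strength moves with these shares was not tested.

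With all chromosomes counted, density differed most for H3K27ac and least for H3K4me1. Chromosome length was taken as the end of the last peak of any 13LGS list, since lengths were not at hand. H3K4me3 had a median of 6.66 peaks per Mb over the 19 chromosomes and ran from 4.25 on Itri18 to 15.7 on Itri16, a ratio of 3.70. H3K27ac ran from 8.91 on Itri10 to 58.8 on Itri18 around a median of 37.6, a ratio of 6.60. H3K4me1 ran from 28.5 on Itri10 to 64.1 on Itri3 around a median of 59.4. Leaving out Itri10, the ratio of densest to sparsest fell to 2.28 for H3K27ac and to 1.23 for H3K4me1, and that of H3K4me3 stayed at 3.70.

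Itri10 stood apart in the enhancer marks. It had 0.232 of the median H3K27ac density of the other 18 chromosomes, 0.480 of the H3K4me1 density and 0.770 of the H3K4me3 density. The next sparsest chromosome for H3K27ac, Itri19, had 25.8 peaks per Mb. H3K4me1 only made up 66.0% of the regions of Itri10, against 38% to 56.6% elsewhere, and H3K27ac only made up 2.28%, against 9.92% to 29.0%. The H3K27ac peaks of Itri10 had a median fold of 3.38, against 3.13 to 3.18 on the others. Of these peaks 81.0% overlapped H3K4me1, against 57.1% to 76.9% elsewhere, and 7.53% stood without any other mark, against 20.4% to 42.2%.

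Itri10 carries genes that lie on the mouse X chromosome. The study's tables place promoter elements of 29 named genes on it, 27 of whose names match a mouse gene, and 26 of these genes are on mouse X. Of 654 matched genes on the other 18 chromosomes, 0 are. They include Atrx, a chromatin remodeler, Cask, a scaffold of synapses, and Chm, whose loss causes the retinal disease choroideremia. On mouse X the densities relative to the autosomes' median were 0.176 for H3K27ac, 0.372 for H3K4me1 and 0.526 for H3K4me3, so all 3 marks had the same order on both. The sex of the pooled animals, and with it the number of X copies per cell, was not considered. Of the 29 named genes, 26 (89.7%) had H3K4me3 on a promoter element, compared with 84.1% of all 734 genes named in the tables at hand, and 3 had no mark there. The Atrx element held an H3K4me3 peak of 48.9-fold and 2450 bp and the Cask element one of 40.9-fold and 1758 bp, both with H3K27ac, and the Chm element one of 22.5-fold and 1087 bp.

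Itri16 and Itri18 marked the other extremes. Itri16, the densest for H3K4me3, was second lowest for H3K4me1 with 52.3 peaks per Mb and had 31.9 H3K27ac peaks per Mb. It had only 2.03 H3K27ac peaks per H3K4me3 peak, and its distal H3K27ac peaks lay at a median of 37.4 kb from H3K4me3, the shortest of all. Only 50.4% of its H3K4me3 peaks overlapped H3K4me1, and H3K4me3 only made up 10.1% of its regions. Itri18 had 13.9 H3K27ac peaks per H3K4me3 peak and a median distance of 138 kb, the longest. There 42.2% of H3K27ac peaks stood without any other mark, against 22.5% on Itri16 and 7.53% on Itri10. The median distances of Itri16 and Itri18 depend by construction on how many H3K4me3 peaks there are to measure to.

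The density of H3K4me3 and that of H3K27ac went together weakly or in opposite directions. Over the 19 chromosomes Pearson's r between the densities was -0.20 and Spearman's rho -0.41, and without Itri10 they were -0.47 and -0.53 (n = 18). The median distance of distal H3K27ac peaks went down with H3K4me3 density, with r of -0.72 and rho of -0.75 over 19 chromosomes. More H3K4me3 peaks per Mb shorten the distance to the nearest one by construction, so no conclusion is drawn from this relation. H3K27ac and H3K4me1 densities went together, with r of 0.82 and rho of 0.59 over 19 chromosomes and r of 0.61 and rho of 0.52 without Itri10. These are descriptions of chromosomes that share libraries and may differ in base composition, and no test was made. Among peaks with a −log10 q-value of at least 5, the relation of H3K4me3 with H3K27ac was weaker, with r of 0.01 and rho of -0.17 over 19 chromosomes and r of -0.21 and rho of -0.25 without Itri10. In that set the H3K27ac density of Itri18 was 1.28 times the median of the 18 chromosomes other than Itri10, against 1.53 times with all peaks. Of the H3K27ac peaks of Itri18 in that set, 17.4% overlapped no H3K4me3 or H3K4me1 peak of the full lists.

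**Figure D5:**
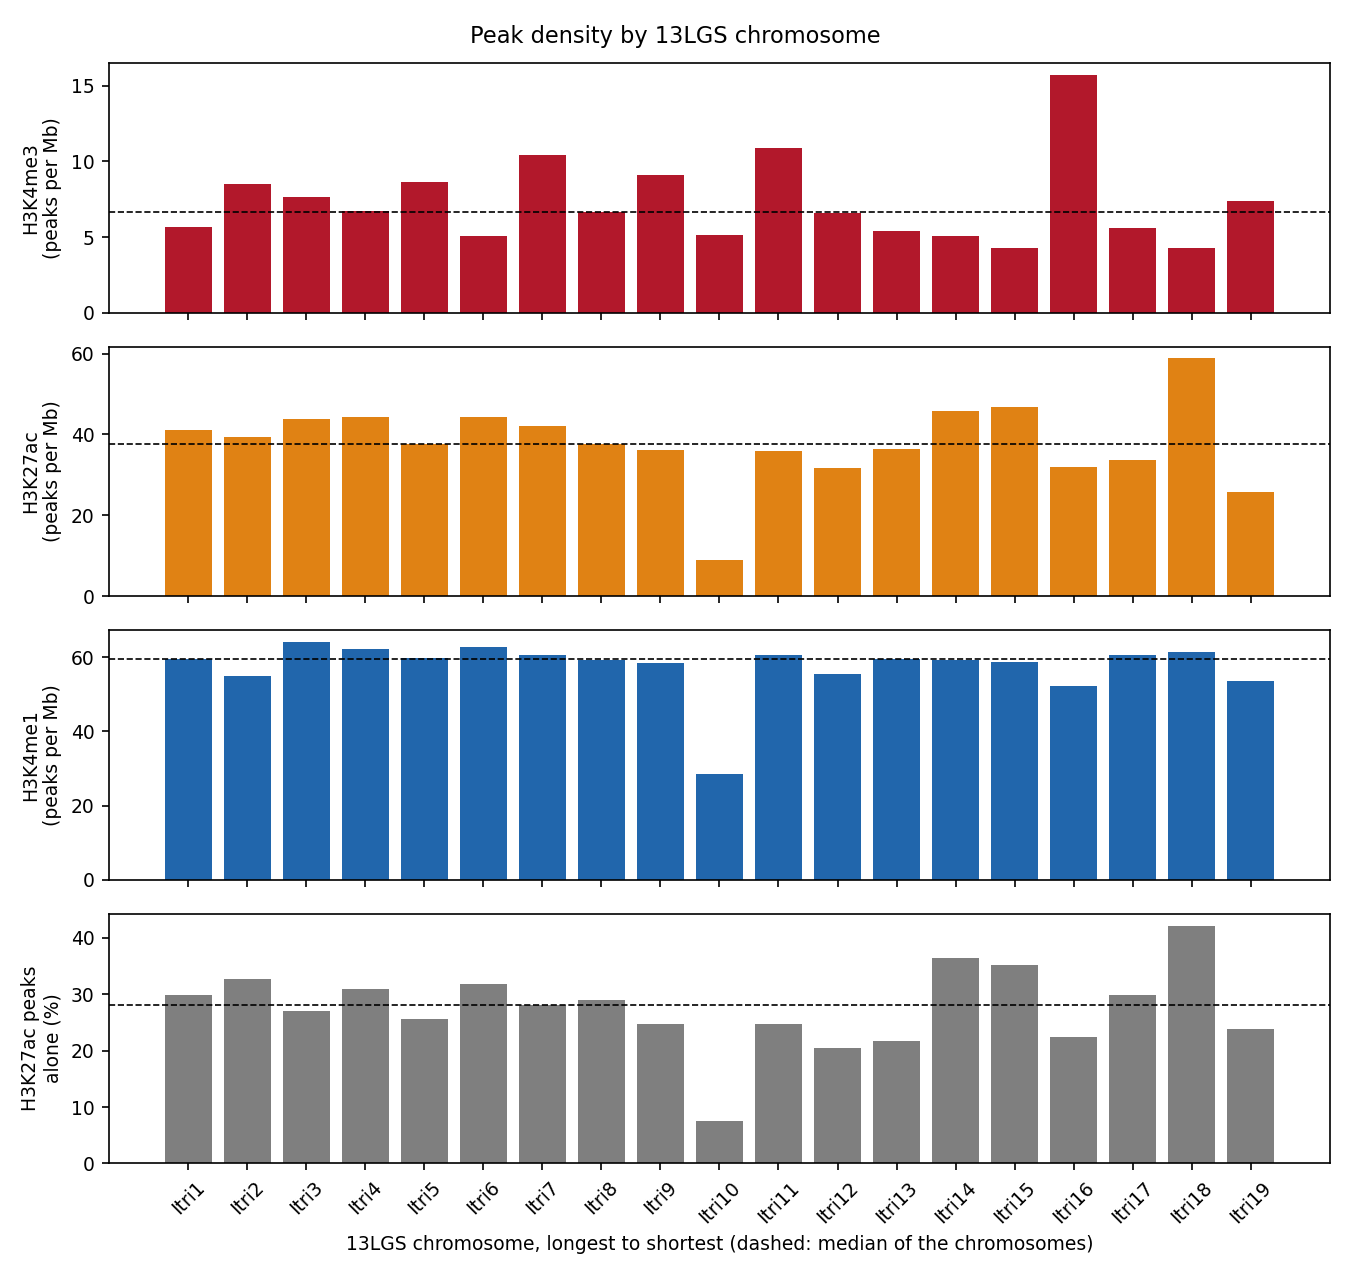
Peaks per Mb of H3K4me3, H3K27ac and H3K4me1 and, in the lowest panel, the percent of H3K27ac peaks with neither other mark, for each 13LGS chromosome from longest to shortest. Dashed lines are medians over the 19 chromosomes. Itri10 has the lowest H3K27ac bar (8.91), Itri16 the highest H3K4me3 bar (15.7) and Itri18 the highest H3K27ac bar (58.8).

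Peaks were unevenly spread at the scale of 1 Mb. In 2419 windows of that size, the densest 10% of windows held 37.8% of H3K4me3 peaks, 27.4% of H3K27ac peaks and 19.2% of H3K4me1 peaks. The ratio of variance to mean of the counts gave another order, with 24.9 for H3K27ac, 14.7 for H3K4me1 and 10.3 for H3K4me3. The window richest in H3K4me3, with 81 peaks, was Itri2:217000001-218000000. The richest in H3K27ac held 195 peaks at Itri4:35000001-36000000, and the richest in H3K4me1 held 178 at Itri1:52000001-53000000. Counts per window of H3K27ac and H3K4me1 had a Spearman's rho of 0.74, those of H3K4me3 and H3K4me1 0.42, and those of H3K4me3 and H3K27ac 0.25. There were 284 windows (11.7%) with an enhancer mark and no H3K4me3, and 34 (1.41%) with no peak of any mark.

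Stretches without any mark were rare. Only 27 gaps between neighbouring peaks reached 1 Mb, and together they covered 52.3 Mb. The longest was 3.80 Mb at Itri12:73903745-77699621, and it held 4 Otx2 and 4 Neurod1 peaks. Of the smaller sequences, Itri20, which spans 4.92 Mb, had 0.203 H3K27ac peaks per Mb and 1.22 H3K4me3 peaks per Mb. Itri21, which spans 4.37 Mb, had 30.7 and 11.4.

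Promoter elements of 14 genes from lists of retinal, glial, lens and housekeeping markers were named in the study's tables, which hold genes the study selected for their expression in 13LGS progenitors and precursors and which were at hand in part. All marks met at Rxrg, a nuclear receptor of cones, with an H3K4me3 peak of 11.1-fold and 2473 bp, and at Neurod4, a transcription factor of retinal precursors, with one of 26.2-fold and 4930 bp. The element of Clu, a Müller glia gene, also held all 3 marks. At Isl2, Lhx1, Nefl and Calb2, which mark neuron classes of the retina, H3K4me3 and H3K4me1 were present without H3K27ac. The H3K4me3 peaks of Lhx1 and Isl2 were wide for their fold, at 9533 bp and 15.4-fold and at 6614 bp and 12.4-fold.

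Of the cone phototransduction genes in the marker lists, only Gnat2 and Arr3 had a named element, and neither held H3K4me3 there. Gnat2, the cone transducin, held 2 H3K27ac peaks of up to 4.96-fold with both Otx2 and Neurod1. Arr3, the cone arrestin, which lies on Itri10, held none of the marks, and Thrb, a thyroid hormone receptor gene needed for cone opsin choice, held H3K4me1 only, at 6.57-fold, in the element listed. Genes used by every cell had strong promoters, with H3K4me3 of 31.1-fold at Eif4a2 and 31.0-fold at Hnrnpa1. The lens crystallin genes Crybb2 and Crybb3 had no H3K4me3, but the Crybb3 element held an H3K4me1 peak of 6628 bp and 7.91-fold and an H3K27ac peak of 4367 bp and 3.77-fold. An element is a short accessible region, and a mark outside it is not counted here.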

How the data were processed

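CUT&RUN reads of P5 13LGS retina were processed by the authors, who trimmed them with cutadapt 3.5 and Trim Galore 0.6.4, mapped them with Bowtie2 to HiC_Itri_2 (mouse: GRCm38), dropped alignments of low mapping quality with SAMtools 1.12, removed duplicates by position with UMI-tools and called peaks with macs2 (q-value 0.05, IgG as control). Each deposited peak carries a fold, the ratio of signal to IgG, and a −log10 q-value given by the authors, and both were used as deposited. Depth is unknown. A blacklist was stated for mouse only.

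Overlaps (at least 1 bp), joined regions, distances and densities were computed with numpy 2.4.6, scipy 1.17.1 and pandas 2.3.3 (Python 3.11.15) by code tested on simulated data, and matplotlib 3.10.9 drew the plots. The 5 peaks of highest fold and the 5 widest per mark were considered for naming, with genes of marker lists that the study's element tables name. Atrx, Cask and Chm of Itri10 were added with their values seen. The marks, members and lists were chosen with earlier results of these data known. Alternatives changed the −log10 q-value, fold, overlap, merging, peak numbers, anchors and length measure. Mouse Otx2 and Neurod1 lists were not used.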

Additional observations from a re-analysis of the deposited data

How the results depend on the processing

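No paired analysis was possible because no result comes from a test and each 13LGS mark has 1 library, so no replicate could be left out either. Keeping chromosomes only moved no number, median width or median fold beyond its counting error. Widths and folds below are in the order H3K4me3, H3K27ac, H3K4me1. At a −log10 q-value of at least 5, median widths were 1254, 935 and 1175 bp and median folds 14.9, 4.17 and 5.00, and H3K27ac kept 37361 peaks. With peaks of a mark within 500 bp merged, median widths were 1316, 507 and 998 bp and median folds 13.8, 3.21 and 4.20. The order of the marks held in both settings for widths and folds. Among joined regions, the stricter q-value gave 4976 of H3K27ac only, 22334 of H3K27ac with H3K4me1 and 3834 of all 3 marks. With equal numbers of peaks per mark, which by construction takes far fewer H3K27ac and H3K4me1 peaks, there were 13170 regions of H3K4me3 only, 5651 of H3K27ac only, 7636 of H3K4me1 only, 1741 of H3K4me3 with H3K27ac, 1372 of H3K4me3 with H3K4me1, 7676 of H3K27ac with H3K4me1 and 1216 of all 3 marks. An overlap of at least 250 bp or a fold of at least 2.5 kept all 7 counts within 1.5 times of those given in the report.

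Median distances of distal H3K27ac and H3K4me1 peaks were 89.9 and 81.4 kb to H3K4me3 peaks with a −log10 q-value of at least 5, 84.0 and 75.4 kb from centre to H3K4me3 summit, and 84.1 and 76.6 kb for distal peaks with a fold of at least 2.5. H3K4me1 peaks without H3K27ac minus those with it gave -4.52 kb as deposited and -2.25 kb at that fold. The sign of both splits held in these settings. Neither split was repeated with distal peaks filtered by −log10 q-value, and only 13.5% of H3K27ac peaks with neither other mark reached 5. Itri10 was the sparsest chromosome for H3K27ac and H3K4me1 and Itri16 the densest for H3K4me3 in every setting, but Itri15 took the place of Itri18 as the sparsest for H3K4me3 at the stricter q-value and by bases covered. The cause of these shifts was not tested. Depth is unknown, and a weak site missing from a list cannot be called unmarked.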
